A study of Mus musculus with 2 samples.

Results

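The CELF and muscleblind proteins are 2 families of RNA-binding splicing regulators, encoded in the mouse by Celf1 to Celf6 and by Mbnl1 to Mbnl3. All 9 genes were found by symbol among the 43346 Ensembl genes of the expression tables, and 95 of the 129984 transcript rows belonged to them. Tissue of the embryonic central nervous system was taken at 11.5 days from C57BL/6J mice, with littermates of mixed sex combined and no genotype or treatment named. There were 2 libraries, biological replicates of 1 group, made from polyadenylated RNA over 200 nucleotides and read in pairs that keep the strand. With 1 group there was no contrast to test, so no p-value is given, and a ± below is the SD over n = 2. It measures only the spread between these samples, and the labels do not say whether the libraries came from separate litters.

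Both families act on the same kind of decision, whether an alternative exon is kept in the messenger RNA, and often push it in opposite directions. Muscleblind proteins bind RNA through zinc fingers that read short sites with a central GC, and CELF proteins bind GU-rich RNA through RNA-recognition motifs. CELF1, the founding member, also directs the decay of messages in the cytoplasm, while Celf3 to Celf6 are best known from neurons. In myotonic dystrophy, expanded repeats in the messages of DMPK or CNBP trap muscleblind proteins, and exons of transcripts such as INSR and MAPT return to their fetal form. Muscleblind proteins also regulate exons of their own messages. A 54-base exon shared by Mbnl1 and Mbnl2 encodes a stretch that favours a nuclear location of the protein.

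3 alternative coding exons of the muscleblind genes are shown first because the junction reads below turn on them. Positions and sequences are from GENCODE M21 transcripts on mm10, 5′ to 3′, and capitals mark each position at which the listed genes do not all carry the same base. The 54-base exon lies at chr3:60614683-60614736 on the plus strand in Mbnl1 and at chr14:120395712-120395765 on the plus strand in Mbnl2, and 46 of its 54 bases were identical.
Mbnl1 54-base exon: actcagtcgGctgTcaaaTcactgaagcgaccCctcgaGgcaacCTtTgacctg
Mbnl2 54-base exon: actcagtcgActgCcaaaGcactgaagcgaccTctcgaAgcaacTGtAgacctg
The 36-base exon lies at chr3:60621423-60621458 (plus strand) in Mbnl1, chr14:120403336-120403371 (plus strand) in Mbnl2 and chrX:51126126-51126161 (minus strand) in Mbnl3. Mbnl1 and Mbnl2 shared 31 of its 36 bases, Mbnl1 and Mbnl3 shared 26, and Mbnl2 and Mbnl3 shared 24.
Mbnl1 36-base exon: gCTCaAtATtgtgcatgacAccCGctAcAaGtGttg
Mbnl2 36-base exon: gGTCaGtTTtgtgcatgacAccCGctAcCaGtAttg
Mbnl3 36-base exon: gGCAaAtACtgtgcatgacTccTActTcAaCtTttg
The 95-base exon follows at chr3:60622146-60622240 in Mbnl1 and at chr14:120404638-120404732 in Mbnl2, both on the plus strand, with 81 of 95 bases identical.
Mbnl1 95-base exon: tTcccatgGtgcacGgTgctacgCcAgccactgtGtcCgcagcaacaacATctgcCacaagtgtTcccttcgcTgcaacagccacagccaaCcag
Mbnl2 95-base exon: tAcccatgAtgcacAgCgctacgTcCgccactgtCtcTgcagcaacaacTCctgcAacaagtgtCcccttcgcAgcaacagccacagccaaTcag

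The libraries held 126358805 and 111687579 expected counts, of which Ensembl genes took 95.3% and 96.7%. All 10 progenitor markers and all 10 markers of young neurons were at 1 TPM or more in both libraries, and none of the 70 marker genes looked at was without a count in either. Progenitor markers summed to 3986 TPM in replicate 1 and 2055 TPM in replicate 2, and neuron markers to 2021 and 1565 TPM. Vim alone held 2643 and 1153 TPM of the progenitor sums, and 2 of the 10 progenitor genes were higher in replicate 2 on scaled counts. The libraries stood apart in skeletal muscle markers, whose 10 genes summed to 10.7 TPM in replicate 1 and 146 TPM in replicate 2. The 5 of these with 100 or more counts in replicate 1 already were all above 2-fold, with log2 ratios of 1.31 to 4.39 on scaled counts and 1.30 to 4.01 on the log2(TPM + 1) scale. The other 5 had 1 to 45 counts in replicate 1. Markers of blood, blood vessel, heart, mesenchyme and macrophages were also detected, so the tissue as collected held more than neural cells.

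All 9 genes reached 1 TPM in both libraries, and the CELF family supplied most of the RNA. The 6 Celf genes summed to 308 TPM in replicate 1 and 302 TPM in replicate 2, while the 3 Mbnl genes summed to 22.0 and 52.9 TPM. The Celf sum was therefore 14.0 times the Mbnl sum in replicate 1 and 5.70 times in replicate 2. The Celf sums of the libraries lay close together, and the change in this ratio came from the Mbnl genes. These tables come from whole tissue, where fewer cells of a type and less RNA per cell cannot be told apart.

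Celf1 (chr2:90940382-91019497), which is expressed in most tissues, had the highest level, 108 TPM in each library, a mean above that of 90.4% of the 14241 genes with at least 1 TPM in both. Celf3 (chr3:94478295-94492198), a neuronal member, came next at 83.7 TPM in replicate 1 and 80.5 TPM in replicate 2. Celf2 (chr2:6539694-7509563), which is expressed in brain, heart and blood cells, stood at 39.3 and 45.6 TPM. Celf1 was above Celf3 and Celf3 above Celf2 in both libraries, with no overlap.

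Celf5 (chr10:81459227-81482709), a member found in the nervous system, was measured at 39.4 TPM in replicate 1 and 42.0 TPM in replicate 2. Its range overlapped that of Celf2, so the order of that pair is not set. Celf4, a neuronal member on chromosome 18 whose loss causes seizures in mice, had 33.3 TPM in replicate 1 and 22.7 TPM in replicate 2. It lay below Celf5 in both libraries. Celf6 (chr9:59577917-59607292) was the lowest of its family at 4.80 and 3.35 TPM, a mean of 4.08 ± 1.03 TPM and above that of 16.8% of expressed genes. A wide gap thus separated Celf6 from the 5 other Celf genes, whose means ran from 28.0 ± 7.46 to 108 TPM.

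Mbnl1 (chr3:60472830-60629750), the main muscleblind gene of muscle, had 11.2 TPM in replicate 1 and 25.3 TPM in replicate 2. Mbnl2 (chr14:120275669-120431697), the main one of the adult brain, had 8.82 and 21.7 TPM. Mbnl3 (chrX:51117269-51206532), which is linked to muscle precursors and regeneration, had 1.98 and 5.91 TPM. Each of the 3 was higher in replicate 2. The ranges of Mbnl1 and Mbnl2 overlapped each other, that of Mbnl1 overlapped Celf4, and that of Mbnl3 overlapped Celf6, while Mbnl2 lay above Celf6 in both libraries.

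**Figure D1:**
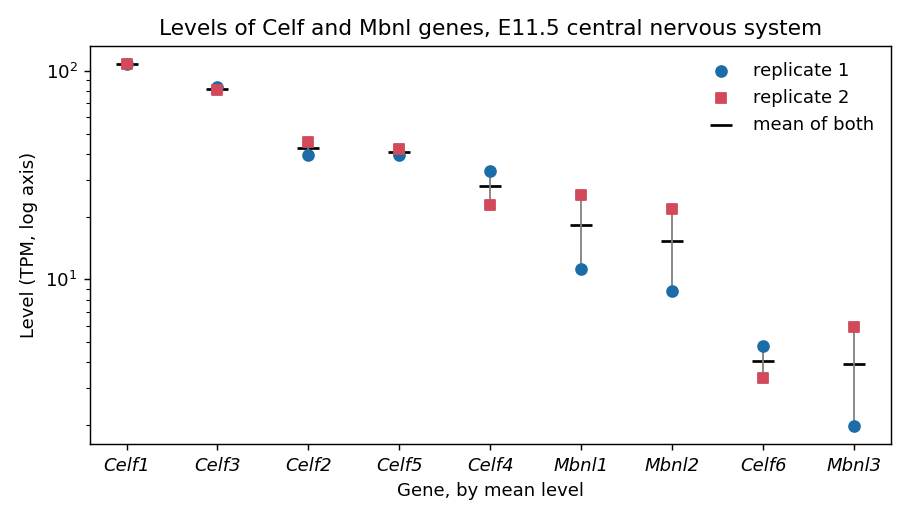
Level in TPM (log axis) of the 6 Celf and 3 Mbnl genes in each library, ordered by mean; circles are replicate 1, squares replicate 2 and dashes the mean. The Celf1 points coincide at 108 TPM, while each Mbnl gene is more than 2-fold higher in replicate 2.

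The order was compared with a separate quantification of the same experiment on mm9 gene models, whose 2 values per gene are not tied to a replicate. Celf1 again stood first at 17.0 and 14.3 RPKM, followed by Celf3 (10.6 and 9.46 RPKM) and Celf2 (5.76 and 6.52 RPKM). Celf5 and Celf4 kept the fourth and the fifth place by mean. The 3 Mbnl genes and Celf6 held the remaining 4 places, with Mbnl2 now at 1.91 and 3.20 RPKM, Mbnl1 at 0.979 and 2.45 RPKM, Mbnl3 at 0.281 and 2.08 RPKM and Celf6 at 0.703 and 0.355 RPKM. 6 of the 9 genes were at 1 RPKM or more in both values, namely Celf1 to Celf5 and Mbnl2. RPKM and TPM are different scales, so only the order is compared. On mm9 models assembled by Cufflinks the order was another, with Celf2 first (47.3 and 15.2 RPKM in the highest of its 18 models), then Celf3 (7.36 and 5.86 RPKM) and Celf1 (7.09 and 6.01 RPKM), and Celf5 after Celf4 and Mbnl2. In the Ensembl 65 table the second mm9 value was the higher one for all 3 Mbnl genes, Celf2 and Celf5. It was the lower one for Celf1, Celf3, Celf4 and Celf6, and these directions do not tie it to a replicate.

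The libraries were next compared gene by gene on expected counts scaled by TMM. All 3 Mbnl genes were at least 2-fold higher in replicate 2, a size that 6.35% of the 16511 genes with 100 or more counts reached. None of the 9 genes was at least 2-fold lower, against 5.05% of all genes. This compares 2 libraries of 1 group, not conditions. The median log2 ratio of replicate 2 over replicate 1 was 1.15 over the Mbnl genes, -0.36 over the Celf genes and -0.01 over all genes tested. On the log2(TPM + 1) scale these medians were 1.21, -0.03 and 0.12, so the size of the Celf lean to replicate 1 depends on the scale. Celf3, Celf4 and Celf6 had a negative ratio on that scale too (-0.06, -0.53 and -0.42).

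For Mbnl3 the counts were 543 and 1500 in replicates 1 and 2, a 2.82-fold difference after scaling with an exact 95% binomial interval of 2.56 to 3.12. Mbnl1 had 3204 and 6979 counts (2.23-fold, interval 2.13 to 2.32). Mbnl2 had 3283 and 6911 counts (2.15-fold, interval 2.06 to 2.24). The intervals cover counting error only, since reads are not independent molecules, and all 3 lay above 2-fold. The skeletal muscle markers were higher in the same library, among them Myod1 (0.15 and 19.4 TPM) and Myog (0.40 and 34.2 TPM), the regulators that commit cells to muscle. In the mesenchyme list 2 of 8 genes, Prrx1 (13.6 and 54.1 TPM) and Pdgfra (18.5 and 50.8 TPM), also passed 2-fold in that direction. The list as a whole was mixed, with 5 of 8 genes higher in replicate 2 and sums of 704 and 725 TPM. Its 3 highest genes, Col3a1, Col1a2 and Col1a1, were lower there (log2 ratios -0.42, -0.22 and -0.86). The progenitor markers had a median log2 ratio of -0.80 (-0.58 on the log2(TPM + 1) scale). The part of these cell types in the Mbnl difference was not tested.

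No Celf gene was 2-fold apart. Celf6 (1037 counts in replicate 1, 551 in replicate 2) was 1.84-fold higher in replicate 1, with an interval of 1.66 to 2.05 that includes a 2-fold difference. Celf4 (10729 and 6256 counts) was 1.68-fold higher in replicate 1 (interval 1.63 to 1.73), and Celf3 (18358 and 15071 counts) 1.19-fold higher (interval 1.17 to 1.22). Celf2, with 13278 and 14875 counts, was the 1 Celf gene that leaned to replicate 2 after scaling, by 1.14-fold (interval 1.12 to 1.17). The markers of young neurons had a median log2 ratio of -0.41 (-0.25 on the log2(TPM + 1) scale), and their part in the Celf values was not tested.

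Celf1 and Celf5 had no settled direction. Celf1 had a log2 ratio of -0.11 after TMM scaling, 0.02 by library totals and 0.00 on the log2(TPM + 1) scale. For Celf5 the counts were lower in replicate 2 (9202 against 6538, log2 ratio -0.46) while the TPM was higher (log2 ratio 0.09). The deposited tables gave Celf5 a length of 2910 bases in replicate 1 and 2313 bases in replicate 2, by which TPM is divided. A short retained-intron transcript took more of the gene in replicate 2, as described with the transcripts.

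**Figure D2:**
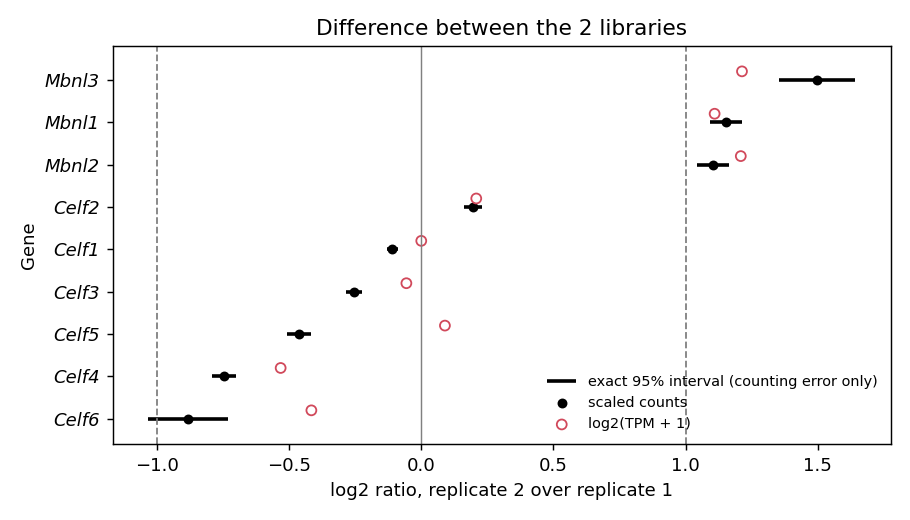
Log2 ratio of replicate 2 over replicate 1 for each gene, from TMM-scaled counts (filled points with exact 95% binomial intervals) and from log2(TPM + 1) (open circles); dashed lines mark 2-fold. The 3 Mbnl genes lie beyond the right-hand line on both scales, and Celf5 changes side between them.

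Other splicing regulators gave a point of comparison. None of 10 genes of the Rbfox, Nova, Srrm4 and STAR group was 2-fold apart, and their median log2 ratio was -0.13. By mean of the libraries, Khdrbs1, a STAR protein, had the highest level there at 107 ± 4.48 TPM, followed by Rbfox2 (87.3 ± 19.9 TPM) and Qk (84.3 ± 28.1 TPM), and Khdrbs2 the lowest at 4.95 ± 0.375 TPM. The order of the first 3 is not set, since Qk (104 TPM) was above Khdrbs1 (103 TPM) in replicate 2, nor is the last place, since Rbfox1 was below Khdrbs2 in replicate 1. Of the 6 Elavl and Musashi genes, which encode neuronal and progenitor RNA-binding proteins, Msi1 was highest at 335 ± 141 TPM and the only one 2-fold apart on scaled counts, lower in replicate 2 (log2 ratio -1.17, and -0.89 on the log2(TPM + 1) scale). By mean, Elavl3 (61.9 ± 3.25 TPM) and Msi2 (60.1 ± 0.707 TPM) followed it, and Elavl2 was lowest at 33.4 ± 0.742 TPM. The order of Elavl3 and Msi2 is not set, since they had 59.57 and 59.58 TPM in replicate 2. Nor is the last place, since Elavl1 (30.6 TPM) was below Elavl2 (32.9 TPM) in replicate 1. The 4 genes at or beside the repeats of myotonic dystrophy were all expressed, from Cnbp (353 ± 69.6 TPM) through Dmwd (84.1 ± 12.7 TPM) and Dmpk (58.8 ± 2.78 TPM) to Six5 (34.1 ± 4.72 TPM).

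Genes that overlap the 9 genes had low levels. In GENCODE M21 13 listed genes overlapped them, 7 of those within Celf2 and none with Celf1, Celf6 or Mbnl3. The highest level among the 13 was 2.26 TPM, for Riiad1 opposite Celf3.

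Transcripts were read next, since each gene makes several messages. Celf3 had 1 transcript in the tables, Celf4 and Mbnl2 had 2 each, and Celf2 and Mbnl1 had the most, 28 and 25. The most abundant transcript was the same in both libraries for 6 of the 9 genes and differed for Celf1, Celf5 and Mbnl1. By share of expected counts, or among coding transcripts alone, Celf5 had the same leading transcript in both, and 7 genes did. Among 6597 genes with several transcripts and at least 10 TPM in both libraries, 21.1% differed in this way, and 5 of the 9 genes, 3 of them differing, belonged to that set. The depositors' tables give an SD for each estimated transcript count, which is used below.

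Celf1-206 and Celf1-204, both protein-coding, led Celf1. Celf1-206 held 37.6% of the gene in replicate 1 and 24.4% in replicate 2, and Celf1-204 held 34.1% and 34.6%. The estimated counts of Celf1-206 were 15561 (SD 387) and 8635 (SD 499), so its share differed by more than the estimation error, while that of Celf1-204 hardly moved. 12 other transcripts each stayed under 10%.

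Celf2-206 was the leading Celf2 transcript with 30.5% in replicate 1 and 42.6% in replicate 2, followed by Celf2-214 (12.9% and 14.1%), Celf2-205 (14.9% and 9.9%) and Celf2-228 (13.5% and 9.1%). Celf2-228 is annotated as a target of nonsense-mediated decay, the pathway that removes messages with an early stop. All transcripts of that class together took 13.5% and 9.10% of Celf2 TPM. By expected counts Celf2-228, of 1996 bases, held 6.20% and 3.69%, and Celf2-205, of 1721 bases, 5.82% and 3.41%. The longer Celf2-206 held 40.8% and 50.6% of the counts and Celf2-214 28.4% and 27.5%. Celf4-201 held 70.7% and 77.6% of Celf4, with Celf4-202 holding the rest.

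Celf5 had the largest noncoding share of TPM among the 9 genes, 35.4% in replicate 1 and 49.0% in replicate 2. By expected counts its noncoding share was 6.30% and 10.6%, below the 16.3% and 16.4% of Mbnl1. Celf5-201, which is protein-coding, held 52.6% and 40.6% of TPM, and 81.1% and 80.3% of the expected counts. Celf5-207, a retained-intron transcript of 605 bases, held 29.4% and 42.2%. It carried only 423 (SD 31.0) and 540 (SD 25.2) of the estimated counts, or 4.60% and 8.26% of those of the gene, since TPM is per length and this transcript is short. All of the noncoding Celf5 share was of the retained-intron class. For Celf6 the leading transcript was Celf6-201 (66.4% and 45.7%), with Celf6-203 at 24.2% and 21.5% and Celf6-202 at 6.68% and 25.1%.

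Mbnl1-201 led Mbnl1 in replicate 1 with 31.0% against 22.6% in replicate 2, and Mbnl1-214 led in replicate 2 with 31.3% against 14.8%. Estimated counts of Mbnl1-214 were 705 (SD 86.6) and 2883 (SD 121), and those of Mbnl1-201 were 1624 (SD 84.9) and 2288 (SD 118). Both are protein-coding, and the counts of both were higher in replicate 2 while their order turned. Mbnl1-216 (15.7% and 0%), Mbnl1-215 (0% and 11.8%) and the retained-intron Mbnl1-213 (8.50% and 10.9%) each passed 10% in 1 library. Retained-intron transcripts took 18.7% and 22.1% of Mbnl1 TPM.

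The 2 transcripts of Mbnl2 are both protein-coding, and their lengths of 4552 and 4498 bases differ by the length of the 54-base exon. Mbnl2-201, which contains that exon in GENCODE M21, held 67.0% in replicate 1 and 64.4% in replicate 2. Mbnl2-202 held the remaining 33.0% and 35.6%, and its length alone, not its structure, ties it to the lack of that exon. The shares stayed within 3 percentage points although the gene itself was more than 2-fold apart. In Mbnl3, Mbnl3-202 held 47.2% and 57.3% and Mbnl3-203 held 44.2% and 36.9%.

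**Figure D3:**
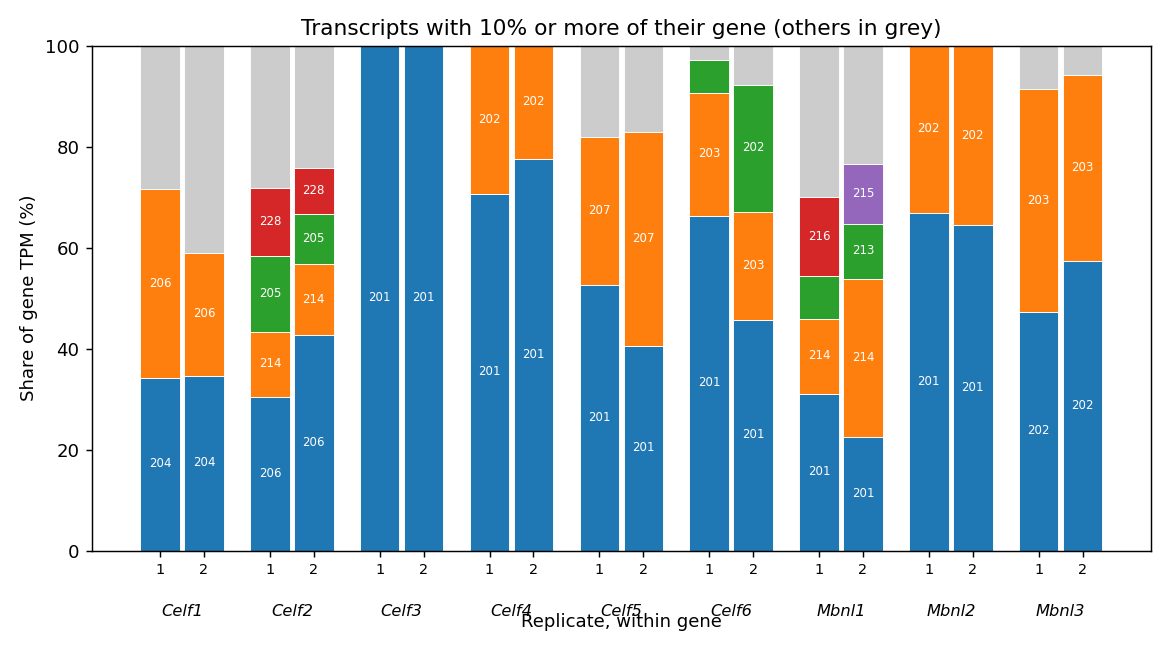
Share of each gene's TPM (%) held by its transcripts in replicates 1 and 2; coloured blocks are transcripts with at least 10% in either library, labelled by number where at least 9% tall, and grey is the sum of all others. Mbnl2 keeps the same split in both libraries, while the leading block changes for Celf1, Celf5 and Mbnl1.

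Exon choice was then measured from the mm9 junction reads, which are given for both replicates without a link to a library and are called the first and second read column. Inclusion is the mean of the reads on both junctions of an exon, divided by that mean plus the reads that skip it. Of annotated exons with a skipping junction and at least 20 such reads, 32 lay in the 9 genes, and 8 of them (25.0%) had an inclusion of 10% to 90%. Over all genes this was 14.9% of 28134 exons. Of the other 24, 22 were above 90% and 2 below 10%. The median inclusion was 98.1% in the 9 genes and 98.8% over all genes, so most of these exons were nearly always kept. The length was a multiple of 3, which keeps the reading frame, for 5 of the 8 exons, and for 50.8% of all exons in the 10% to 90% range. Where an exon has forms that share a junction, each form takes all reads of it and the other form is not counted as skipping. The values of such forms overlap and are not shares, and each form counts as an exon.

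The 54-base exon was kept at intermediate levels in both muscleblind genes. In Mbnl2 its inclusion was 62.1% in the first read column (interval 55.3% to 68.7%) and 66.2% in the second (60.5% to 71.6%). The Mbnl1 exon is not among the Ensembl 65 exons of the mm9 tables and was found from junctions alone, by a search added after the data were seen. Its inclusion was 48.9% (interval 40.3% to 57.6%) and 52.4% (44.9% to 59.9%). Over both columns the Mbnl1 interval of 45.3% to 56.6% lay below the Mbnl2 interval of 60.1% to 68.6%. The intervals of the 2 columns overlapped in each gene. Junctions of the Mbnl2 exon were uneven, with 67 and 198 reads in the first column and 140 and 247 in the second. Beside these, 81 and 99 reads skip it. Those of the Mbnl1 exon had 56 and 78 reads, then 81 and 108. Intervals on the mean of both junctions leave this unevenness out, so the distance between the genes depends on the junction. The transcript estimates on mm10 were 48.0% in replicate 1 and 62.8% in replicate 2 for coding Mbnl1 transcripts with the exon. For Mbnl2 no such estimate is given, since Mbnl2-202 has another length in GENCODE M21 and its structure in the deposited tables was not read.

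The 36-base exon separated the family. Mbnl1 kept it in 95.1% (interval 88.0% to 98.7%) and 85.0% (78.5% to 90.1%) of the reads. Mbnl2 kept its counterpart, also found from junctions alone, in 3.57% (0.743% to 10.1%) and 4.10% (2.07% to 7.23%). Mbnl3 kept its own in 11.4% (3.20% to 26.7%) and 0.461% (0.0232% to 5.01%), with few reads behind the first value, 31 that skip the exon and 3 and 5 on its junctions. No interval of Mbnl1 overlapped one of Mbnl2 or Mbnl3. For Mbnl1 the junction before the exon had 124 reads and the one after it 32 in the first column. The coding Mbnl1 transcripts with this exon held a smaller part, 68.3% in replicate 1 and 53.6% in replicate 2, so the level of inclusion depends on the estimate. No quantified coding Mbnl2 transcript with a structure in use here carries the exon, so the transcript estimates give no comparison with Mbnl2.

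The 95-base exon, whose length is not a multiple of 3, was mostly kept in both genes. Mbnl1 had 100% (interval 92.3% to 100%) and 98.0% (95.1% to 99.5%), and Mbnl2 had 85.5% (77.9% to 91.4%) and 87.2% (83.4% to 90.5%). The upstream neighbour was the 36-base exon in Mbnl1 and the exon before it in Mbnl2, so the values have different denominators. With the same neighbours as in Mbnl2, the Mbnl1 exon had 97.0% (84.2% to 99.9%) and 94.3% (89.5% to 97.4%), intervals that overlap those of Mbnl2. Its upstream junction then had 4 and 24 reads, beside 1 and 9 that skip it. The downstream junction, with 60 and 275 reads, is shared with messages that hold the 36-base exon. These values therefore run high and are not a like comparison with Mbnl2. A 247-base, partly coding exon of Mbnl3 was kept in 52.5% and 59.2%, with 60 and 4 reads on its junctions in the first column, and a 1049-base, partly coding exon of Mbnl1 in 91.0% and 89.9%. Mbnl2 kept a 619-base, partly coding exon in 96.0% and 98.4% and a 201-base coding exon in 97.1% and 100%.

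**Figure D4:**
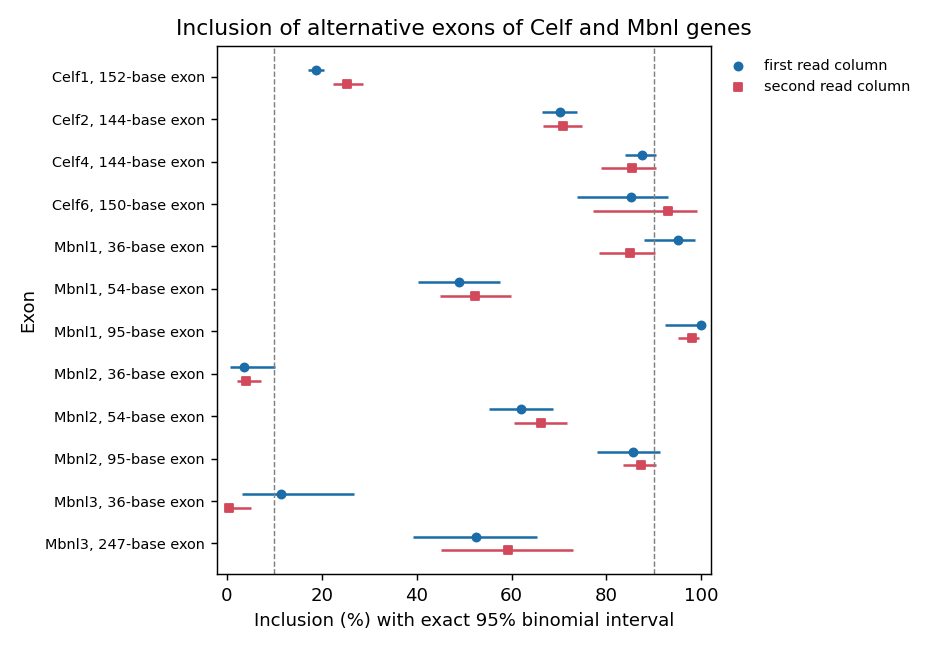
Inclusion (%) of the 8 annotated alternative exons with 10% to 90% inclusion and of the paired Mbnl exons, in the first (circles) and second (squares) read column, with exact 95% binomial intervals; dashed lines mark 10% and 90%. The 36-base exon is near 90% in Mbnl1 and near the left edge in Mbnl2 and Mbnl3.

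Among the Celf genes, Celf2 held the exon with the most intermediate inclusion. Its 144-base coding exon, at chr2:6549832-6549975 on the minus strand of mm10, encodes part of an RNA-recognition motif and is shown because both forms of the message were frequent.
Celf2 144-base exon: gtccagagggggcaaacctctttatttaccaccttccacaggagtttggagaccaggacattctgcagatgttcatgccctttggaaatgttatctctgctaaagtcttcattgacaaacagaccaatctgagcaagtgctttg
It was kept in 70.1% (interval 66.4% to 73.7%) in the first read column and 70.8% (66.5% to 74.8%) in the second. Coding Celf2 transcripts that hold it made up 74.6% in replicate 1 and 70.3% in replicate 2. The junctions at its ends were uneven in the first column, with 774 and 114 reads. 4 further Celf2 exons, of 36, 49, 80 and 197 bases, were kept in 97.9% to 99.5% over both columns.

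A 152-base, partly coding exon of Celf1 was kept in 18.8% (interval 17.1% to 20.6%) and 25.3% (22.3% to 28.6%), and a 53-base noncoding exon of the same stretch in 2.10% and 6.03%. These were the only 2 of the 32 exons whose intervals did not overlap between the read columns. Junctions of the 152-base exon were uneven in the first column, with 220 and 533 reads beside 1631 that skip it. In the second column they had 202 and 183 reads beside 569 that skip it. Its intervals take the mean of both junctions, so its difference between the columns depends on the junction. The other 3 Celf1 exons, 2 of which are 111-base and 114-base forms of 1 exon, were kept in 93.5% to 99.9%. Those 2 forms share a junction, so their values do not give the part of each.

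For a 144-base coding exon of Celf4 the values were 87.4% and 85.4%, and for an 84-base form of it 92.4% and 90.6%. The forms share 1 junction, with 442 and 204 reads, and the skipping reads, so the values do not give the part of each. On its own junction the 144-base form had 336 and 64 reads, against 914 and 237 for the 84-base form. The 144-base form was thus the less used. Celf6 kept its 150-base coding exon in 85.1% and 93.0%, with overlapping intervals, whereas the 150-base exon of Celf3 was kept in 99.3% and 99.4%. The interval of Celf6 over both columns, 79.0% to 93.7%, lay below that of Celf3, 98.9% to 99.7%. In the second column alone the intervals overlapped (77.2% to 99.2% and 98.7% to 99.8%). Only 9 and 2 reads skip the Celf6 exon. Its junctions were uneven, with 89 and 14 reads in the first column and 35 and 18 in the second, so its value depends on the junction. Celf3 exons of 126, 137, 141 and 144 bases were kept in 96.1% to 99.9% over both columns, and 2 more Celf4 exons, 2 of Celf5 and 1 of Celf6 in 98.9% to 99.9%. The 80-base exon of Celf5 among these had 1 read on 1 of its junctions, so its value rests on the other.

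The transcripts that CELF and muscleblind proteins are known to regulate were read as a list of 20 genes, without any test of regulation here. 17 of them were at 1 TPM or more in both libraries, 4 passed 2-fold on scaled counts with replicate 2 above, and none passed it the other way. Over all genes these shares were 6.35% and 5.05%. The 4 were Atp2a1, Ldb3, Tnnt3 and Cacna1s, which serve muscle contraction (Tnnt3 had a log2 ratio of 1.05 on scaled counts and 0.79 on the log2(TPM + 1) scale), and they were high in the library with more skeletal muscle RNA. Atp2a1 (80 counts) and Cacna1s (26 counts) had few reads in replicate 1. The part of muscle cells in that difference was not tested. The highest levels belonged to the membrane skeleton gene Add1 (149 ± 14.0 TPM), the kinase gene Csnk1d (125 ± 2.11 TPM) and the heart troponin gene Tnnt2 (115 ± 44.8 TPM), and the lowest mean to the muscle calcium channel gene Cacna1s at 0.11 and 2.03 TPM, the latter above Grin1 (1.67 TPM) and Kcnma1 (1.45 TPM) in replicate 2. The median log2 ratio of the 20 genes was 0.17.

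In 19 of the 20 genes 71 annotated exons passed the read minimum, and 21 of them (29.6%), in 10 genes, had an inclusion of 10% to 90%, beside 14.9% over all genes. 2 exons looked at for their known fetal form, chosen after their values were seen, were mostly skipped. The 36-base exon of the insulin receptor gene Insr was kept in 9.83% and 4.76% and the 93-base exon of the tau gene Mapt, which adds a microtubule-binding repeat, in 1.49% and 2.97%. Both were low in each read column.

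Bin1, which shapes membrane tubules, had 4 intermediate exons. Over both columns they were kept in 32.8% (93 bases), 67.0% (129 bases), 21.4% (108 bases) and 81.4% (72 bases), with overlapping intervals between the columns in each. For a 37-base exon of Add1 the value was 29.7% and for its 34-base form 20.8%, both with a shared junction of 1055 and 558 reads. On its own junction the 34-base form had only 98 and 36 reads, against 735 and 458 for the 37-base form. The value of the 34-base form thus rests mostly on shared reads, although it counts among the intermediate exons.

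Csnk1d kept a 63-base exon in 20.7% (interval 18.4% to 23.2%) and 26.6% (24.1% to 29.2%), a small difference between the columns beyond counting error. The 111-base exon of the NMDA receptor gene Grin1 was kept in 44.7% and 45.5%, on 29 reads in all. Tanc2, which encodes a synaptic scaffold protein, kept a 30-base exon in 48.9% and 24.3%, the calcium channel gene Cacna1d a 27-base exon in 83.3% and 62.3%, and the potassium channel gene Kcnma1 a 174-base exon in 86.7% and 63.0%. The intervals of these 3 overlapped between the columns. The Kcnma1 exon had 36 and 14 reads on 1 junction but only 3 in each column on the other, so its value rests mostly on the first junction. The 32-base exon of Dmd was kept in 8.00% and 11.5%.

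Ryr1, the calcium release channel of skeletal muscle, held 3 of the 7 exons among the 71 whose intervals did not overlap between the read columns. It kept an 18-base exon in 8.47% (interval 2.11% to 26.5%) and 48.0% (35.5% to 61.4%), a 50-base exon in 29.4% (10.3% to 56.0%) and 76.8% (62.7% to 88.0%), and a 65-base exon in 70.0% and 95.1%. In each of the 3 the second column was higher. Its 242-base exon rested on 2 inclusion reads in the first column. Ryr1 itself had 1.61 TPM in replicate 1 and 3.40 TPM in replicate 2. The junction columns cannot be assigned to the libraries, so the exon values and the muscle markers cannot be set side by side library by library.

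**Figure D5:**
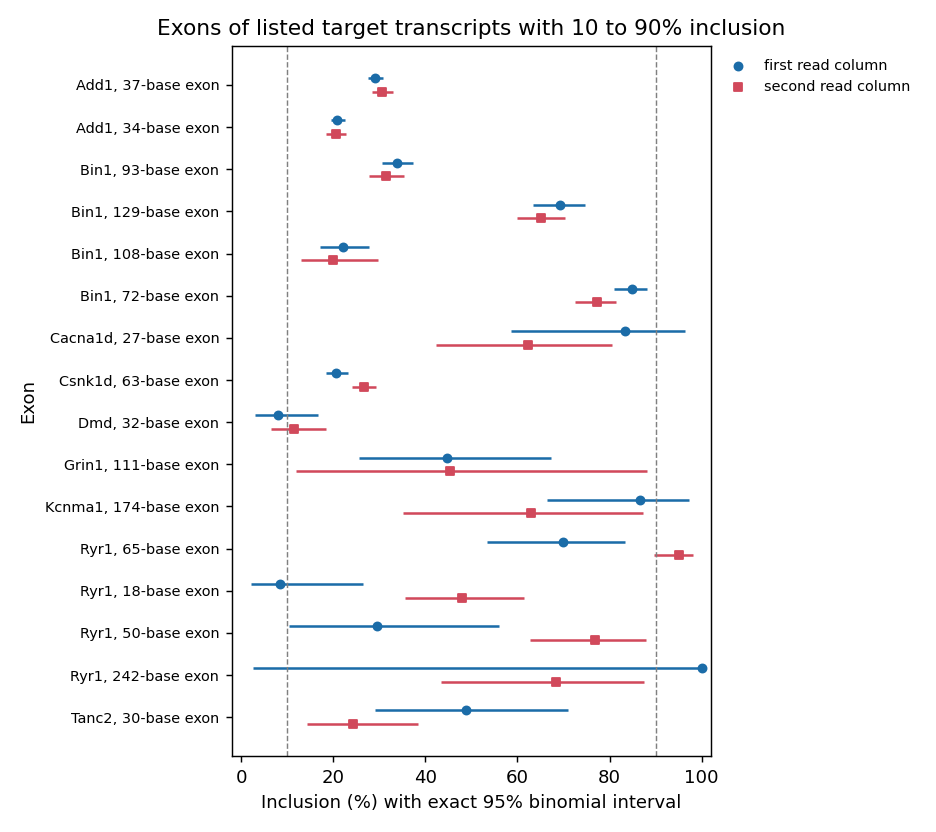
Inclusion (%) of 16 exons with 10% to 90% inclusion in 9 listed target genes, in the first (circles) and second (squares) read column, with exact 95% binomial intervals; dashed lines mark 10% and 90%. The intervals of each of the 4 Bin1 exons overlap between the columns, only narrowly for the 72-base exon, while 3 of the 4 Ryr1 exons are higher in the second.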

How the data were processed

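The deposited mm10 tables give an expected count, TPM and FPKM per gene, per the file headers, and an expected count, TPM and count SD per transcript. The authors also deposited mm9 gene tables with 2 RPKM values per gene and a junction list with the read count of each replicate, neither tied to a library. Of the aligner and the quantifier, the sources used here give no name. Symbols, coordinates and exon structures came from GENCODE M21 by identifier; 42462 of 43346 genes and 93 of 95 transcript lengths matched. Expected counts were rounded. Libraries were scaled by edgeR's TMM (version 4.0.16) or, alternatively, by size factors from DESeq2 (version 1.42.0), and ratios had a prior count of 0.5. The ratio computation was tested on simulated counts with less spread than the coefficient of variation of 0.351 estimated between these libraries. That test therefore does not show how 2-fold calls behave at this spread. The inclusion computation was tested on a made-up exon without other forms. Intervals are exact 95% Clopper-Pearson intervals computed in scipy 1.17.1. Exons on mm9 were paired with mm10 by gene, length and both intron lengths, without converting coordinates, and all 32 matched. The text names all 9 genes, their transcripts with at least 10% of the gene, their exons with at least 20 reads, and of other lists the 3 highest genes and the lowest, plus intermediate exons of the target list; muscle and mesenchyme genes, and the Insr and Mapt exons, were named after their values were seen. The genes and lists were chosen with earlier results of these data known. Alternatives were other scalings, thresholds, transcript shares from counts, other gene models and 1 library or read column alone. The exons of 1 gene of the target list count in its totals and are not reported here. Contig, exon and mm9 transcript values were not used here.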

Additional observations from a re-analysis of the deposited data

How the results depend on the processing

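All 9 genes stayed at 1 TPM or more after renormalising over Ensembl genes, by FPKM and without replicate 1 or 2 (9 to 9 genes), and 7 reached 5 TPM in both libraries. The count of 3 genes at least 2-fold apart was the same under DESeq2 size factors, library totals, log2(TPM + 1), a prior count of 2 and no filter on low counts. The log2 ratio turned sign for Celf1 (library totals and TPM) and Celf5 (TPM) only. Transcripts leading in both libraries numbered 6, and 7, now with Celf5, by expected counts or among coding transcripts. Cufflinks models left 6 genes at 1 RPKM or more in both mm9 values, in another order of levels. Intermediate exons numbered 8, 8 with at least 50 reads, 8 to 8 in 1 read column alone and 11 between 5% and 95%. Only 6 exons were intermediate in each column alone: the first lost the 36-base exon of Mbnl1 and gained that of Mbnl3, and the second lost the 150-base exon of Celf6 and gained the 1049-base exon of Mbnl1. Settings added after the data were seen gave 14 exons defined by junctions alone, which include exons outside the annotation, and 7 with both junctions within 4-fold of each other. No paired analysis was possible because there was 1 group. With n = 2 and 1 tissue, neither library can be called typical, and exons under 50 reads have wide intervals.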
